A study of Rattus norvegicus with 12 samples.

Results

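The collagens, laminins, integrins and matrix proteases of NRK cells, a line from normal rat kidney, were followed in WT, VAMP7KO and ATG5KO cells. Members were the genes whose symbol began with Col and a digit, Lama, Lamb, Lamc, Itga, Itgb, Mmp and a digit, or Adam in the study's lists of genes changed in VAMP7KO or ATG5KO against WT. Matched by Ensembl identifier, this gave 39 of the 20842 genes in the count table, of which 18 were listed for VAMP7KO only, 9 for ATG5KO only and 12 for both. Genes of these families that neither list holds were not members, so the members show how genes already called changed differ by genotype, and not how often such genes changed. The part of the ATG5KO list that was read held 1427 of its 1961 genes, with the less strongly lowered ones among the 534 not read, so a member that fell moderately in ATG5KO could enter only through the VAMP7KO list.

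All 3 genotypes were untreated NRK cells, labelled epithelial, in complete medium. VAMP7KO cells were made to lack the vesicle fusion protein VAMP7, and ATG5KO cells to lack ATG5, which is needed to form autophagosomes. Each knockout was made with CRISPR-Cas9 and grown from 1 sorted cell, so a property of the clone and an effect of the lost gene cannot be told apart. polyA RNA was sequenced from 4 replicates of each genotype, 12 libraries in all. The levels below are CPM, read counts scaled by TMM to a common library size, given in the order of replicates 1, 2, 3 and 4. Transcript lengths were not used, so levels compare between libraries and not between genes.

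Collagens are the structural fibres and networks of the extracellular matrix, and laminins are trimers of an alpha, a beta and a gamma chain that build the basement membrane under epithelia. Integrins are pairs of an alpha and a beta subunit that anchor cells to these proteins and signal from them. Matrix metalloproteinases (MMPs) and the related ADAM and ADAMTS proteases cut matrix proteins or shed proteins from the cell surface. In the kidney these genes make and turn over the basement membrane of the tubule and, in interstitial cells, the fibrillar matrix that builds up in scarring.

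Between 21090858 and 31525111 reads were counted per library, and a count of 3, taken as the floor, stood for 0.0952 to 0.142 CPM. Vamp7 was at 108.7 to 115.8 CPM in WT, 41.6 to 51.9 CPM in VAMP7KO and 125.1 to 129.97 CPM in ATG5KO. The 4 libraries of each genotype formed a pair of replicates 1 and 2 and a pair of replicates 3 and 4. The chi-square per gene between libraries of 1 genotype was 3.10 to 25.6 within a pair and 126 to 239 across pairs. The study's own analysis adjusted for a batch effect without naming the batches, and no source used here says what separates the pairs, called sets from here on. The p-values over 4 replicates therefore rest on libraries that are not spread evenly. A p from a fit within 1 set rests on libraries that lie close together, and does not measure the spread between sets. Of the epithelial markers that could be matched, Krt8 was at 777 ± 107 CPM (SD, n = 4) in WT, 503 ± 55.6 CPM in VAMP7KO and 688 ± 105 CPM in ATG5KO, while Cgn was at 0.103 ± 0.0491 CPM in WT.

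In WT, both of replicates 1 and 2 were above both of replicates 3 and 4 for 27 of the 38 members that passed the filter on low counts (41.6% of all genes that passed) and below them for 7 (40.4% of all genes). The heat map of members shows this pattern beside the differences between genotypes.

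**Figure D1:**
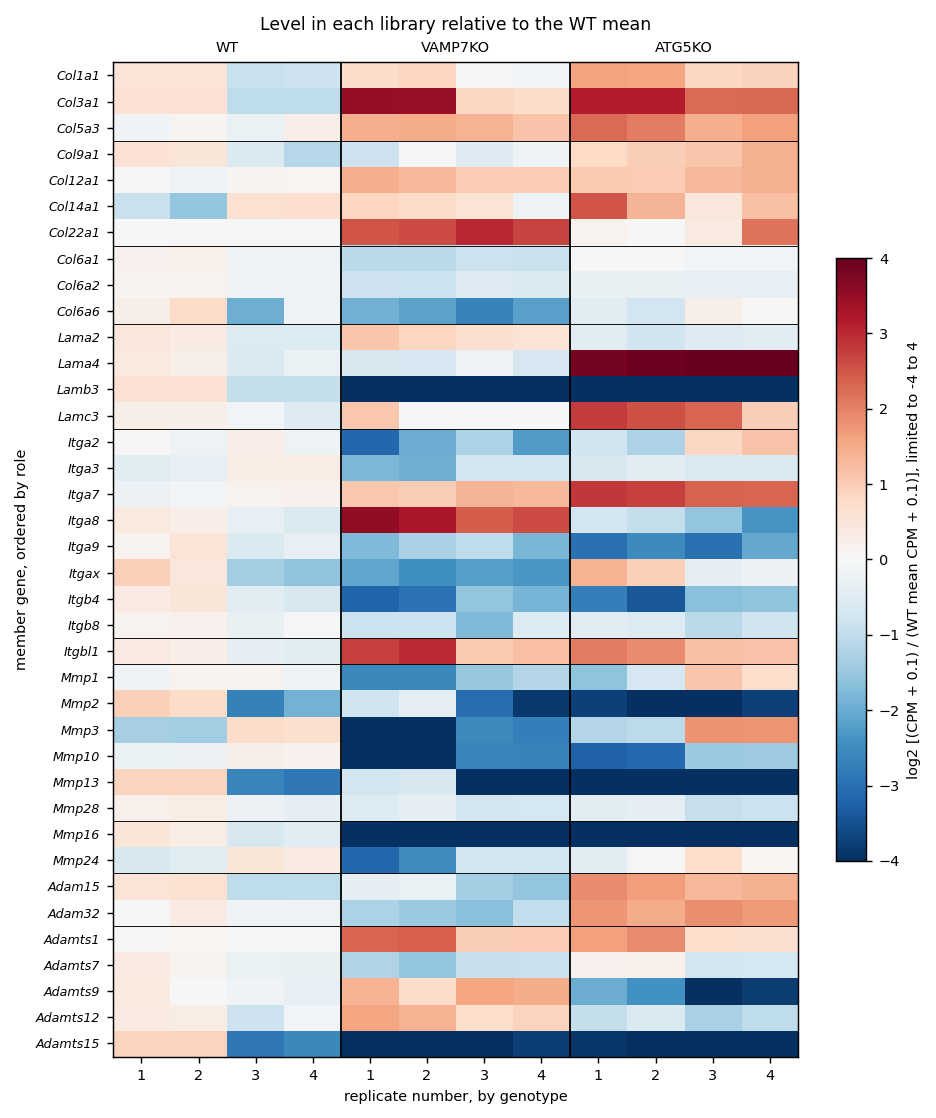
Level of 38 of the 39 member genes (rows, by role) in each of the 12 libraries (columns, replicates 1 to 4 of WT, VAMP7KO and ATG5KO), as log2 of CPM over the WT mean with 0.1 CPM added to both. Red is above and blue is below the WT mean, and the colour stops at 4 in either direction. Lamb3 and Mmp16 were far below the WT mean in all 8 knockout libraries, and Lama4 was far above it in the 4 ATG5KO libraries.

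The members were chosen by their differences from WT, which are given as a description with no test. On the fitted scale 14 of the 38 members that passed the filter on low counts were higher in VAMP7KO than in WT and 24 were lower, and in ATG5KO 19 were higher and 19 were lower. Over all 13141 genes kept by the filter, 50.5% had a positive fitted value in VAMP7KO and 50.7% in ATG5KO, and 22.9% and 46.3% were called changed. Lamc3 did not pass the filter. The fitted value was positive in both knockouts for 10 members and negative in both for 15. Positive in VAMP7KO and negative in ATG5KO were Lama2, Itga8, Adamts9 and Adamts12, and the reverse held for 9 members (Col9a1, Lama4, Itga2, Itgax, Mmp1, Mmp3, Mmp24, Adam15 and Adam32). The lists rest on a fold of at least 1.5 for VAMP7KO and 2 for ATG5KO and on an adjusted p, all in the study's own fit, so the fitted values here do not mark their edge. Of the members listed for VAMP7KO, Mmp28 at -0.57 and Col6a2 at -0.68 were nearest 0 on the fitted log2 scale, and of those not listed Mmp13 at -1.55 and Mmp2 at -1.39 were farthest from it. For ATG5KO, Adamts1 at 1.19 and Col12a1 at 1.21 were nearest 0 among the listed members, and Adamts9 at -3.07 and Mmp10 at -2.46 farthest from 0 among those not listed in the part that was read.

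VAMP7KO and ATG5KO were then compared with each other. This contrast is the difference of the 2 contrasts against WT by which the members were chosen, on the same libraries, so it is not independent of the choice. The counts and medians over the members are a description from which nothing about the families is read, and each p describes the gene it stands with. Of the 38 members, 28 passed the test (edgeR quasi-likelihood, adjusted p under 0.05 over all genes tested), 9 higher and 19 lower in VAMP7KO. Of all genes tested, 44.9% passed, 21.3% higher and 23.6% lower. The median log2 fold change was -0.51 over the members and -0.01 over all genes, and its median size was 1.75 over the members and 0.31 over all genes. The 4 libraries of VAMP7KO lay all above those of ATG5KO for 8 members, against 13.1% of all genes, and all below for 15, against 15.3%. With replicates summed within each set, which leaves 2 samples per genotype and was added after seeing the data, 16 of 39 members passed, 7 higher and 9 lower, with Lamc3, which passes the filter there, among them. Calls lost with these sums were those of Col1a1, Col5a3, Col9a1, Col22a1, Col6a2, Col6a6, Itga2, Itga3, Itga9, Mmp1, Mmp10, Mmp24 and Adamts7. Their adjusted p was 0.0519 to 0.245. With no replicate block 22 passed. The shares of all genes that passed in these alternatives are not given here. A change in the count is thus not read as particular to the members. The calls of 13 members held in each of the 21 alternatives run, among them Col6a1, Lama2, Lama4, Itga7, Itga8, Itgax, Mmp3, Mmp13, Adam15, Adam32, Adamts9 and Adamts12.

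**Figure D2:**
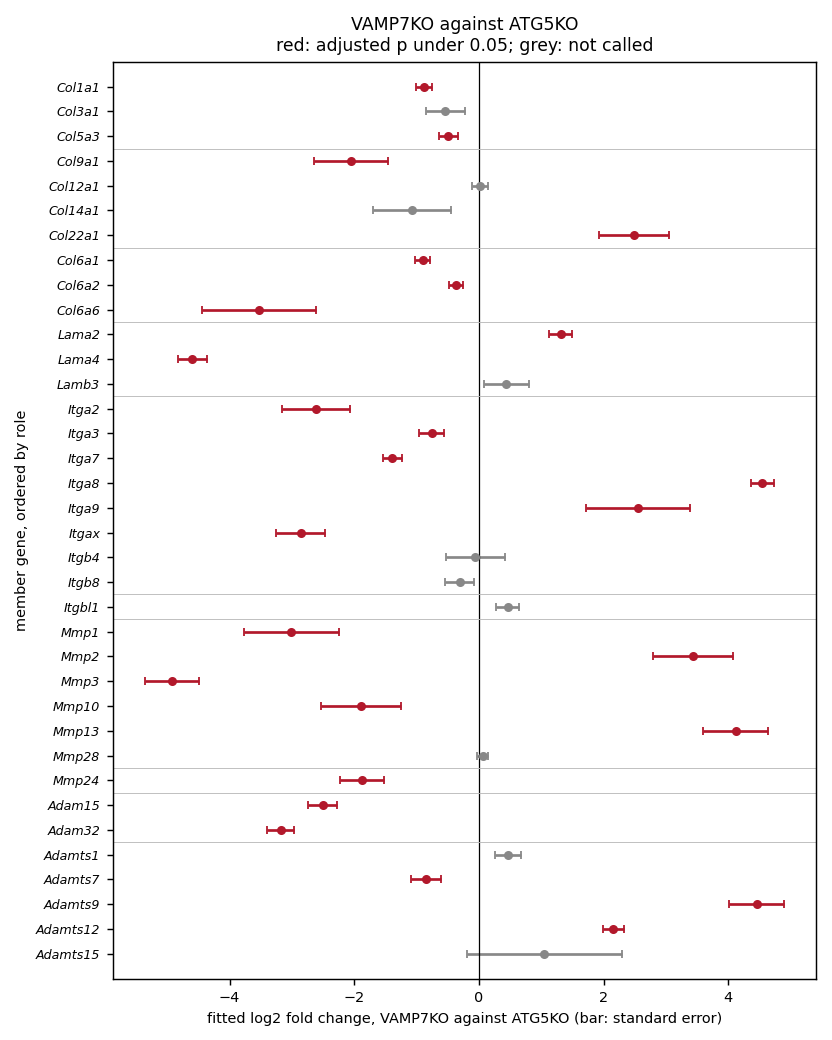
Fitted log2 fold change of VAMP7KO against ATG5KO (horizontal axis) for 36 members ordered by role, with the standard error as bar. Members that passed the test are red and the others grey. Mmp16, with 0 counts in ATG5KO, and Lamc3, which did not pass the filter, are not drawn. Itga8 and Adamts9 lay farthest to the right, at 4.55 and 4.46, and Mmp3 and Lama4 farthest to the left, at -4.93 and -4.60.

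Among the fibril-forming collagens, Col1a1 and Col5a3 were lower in VAMP7KO than in ATG5KO, and all 3 members had a positive fitted value against WT in both knockouts. Col1a1 (ENSRNOG00000003897) encodes the main chain of type I collagen and Col3a1 (ENSRNOG00000003357) the chain of type III collagen, the fibres of scar and interstitium. Col1a1 was at 1225, 1264, 464 and 481 CPM in WT, 1427, 1542, 849 and 795 CPM in VAMP7KO and 2606, 2582, 1519 and 1630.1 CPM in ATG5KO. Col3a1 was at 175, 175, 56.9 and 58.1 CPM in WT, 1334, 1307, 208 and 195 CPM in VAMP7KO and 1027, 1026, 558 and 572 CPM in ATG5KO. Col3a1 thus stood above each WT library in all 8 knockout libraries, and VAMP7KO was above ATG5KO in replicates 1 and 2 and below it in replicates 3 and 4. Between the knockouts Col1a1 was lower in VAMP7KO (log2 fold change -0.88 with standard error 0.134 and adjusted p = 5.6e-04), a call lost with no replicate block (adjusted p = 0.14) and with replicates summed within each set (adjusted p = 0.052), while Col3a1 did not pass over all replicates (log2 fold change -0.54 with standard error 0.309 and adjusted p = 0.18). Fitted within a set, Col3a1 was 0.38 higher on the log2 scale in VAMP7KO in replicates 1 and 2, and 1.49 lower in replicates 3 and 4. Col5a3 (ENSRNOG00000020525), a chain of type V collagen, which seeds fibrils, was at 13.6, 16.1, 12.7 and 18.01 CPM in WT, 42.0, 42.9, 39.6 and 33.4 CPM in VAMP7KO and 73.2, 62.9, 41.9 and 47.3 CPM in ATG5KO. It was lower in VAMP7KO (log2 fold change -0.49 with standard error 0.153 and adjusted p = 0.025), and the adjusted p reached 0.092 when 1 library of VAMP7KO or ATG5KO was left out. The call was lost without VAMP7KO replicate 1, 2 or 4, without ATG5KO replicate 1 or 2, and with no replicate block (adjusted p = 0.064).

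The collagens that decorate or link fibrils did not move together. Col22a1 (ENSRNOG00000024824), a collagen of tissue junctions, was higher in VAMP7KO than in ATG5KO, and Col9a1 (ENSRNOG00000012920), a cartilage collagen, was lower. Col22a1 was at 0.0338, 0.0346, 0.0329 and 0.0357 CPM in WT, 0.668, 0.724, 0.975 and 0.781 CPM in VAMP7KO and 0.0465, 0.0347, 0.0718 and 0.507 CPM in ATG5KO. WT held 1 count in each library, the 4 VAMP7KO libraries were above it, and ATG5KO was near WT except in replicate 4. Between the knockouts the difference passed (log2 fold change 2.49 with standard error 0.567 and adjusted p = 0.0054), and the log2 fold change ranged from 1.74 to 4 over the alternatives. It was 3.36 without VAMP7KO replicate 4 and 3.85 without ATG5KO replicate 4. With replicates summed within each set the call for Col22a1 was lost (adjusted p = 0.073). Col9a1 was at 0.338, 0.312, 0.0986 and 0.0357 CPM in WT, 0.0668, 0.181, 0.108 and 0.165 CPM in VAMP7KO and 0.418, 0.485, 0.539 and 0.691 CPM in ATG5KO, with the 4 ATG5KO libraries above all VAMP7KO libraries (log2 fold change -2.05 with standard error 0.593 and adjusted p = 0.018). This call was lost without VAMP7KO replicate 1 and without ATG5KO replicate 3 or 4 (adjusted p 0.060 to 0.070), and with replicates 1 and 2 only (adjusted p = 0.058). Col12a1 (ENSRNOG00000058470) and Col14a1 (ENSRNOG00000026415) belong to the collagens that coat type I fibrils. Col12a1 was at 103, 93.6, 114 and 112 CPM in WT, 292, 260.0, 215 and 216 CPM in VAMP7KO and 219, 212, 261 and 283 CPM in ATG5KO, so both knockouts lay above WT and the knockouts overlapped (log2 fold change 0.02 with standard error 0.129 and adjusted p = 0.94). Fitted within a set, Col12a1 was 0.37 higher on the log2 scale in VAMP7KO in replicates 1 and 2 (adjusted p = 9.9e-04), and 0.34 lower in replicates 3 and 4 (adjusted p = 6.8e-08). These p-values, like others from fits within a set, rest on the spread within a set alone. Col14a1 was at 0.169, 0.0693, 0.657 and 0.678 CPM in WT, 0.802, 0.724, 0.614 and 0.329 CPM in VAMP7KO and 2.69, 1.18, 0.575 and 1.01 CPM in ATG5KO, and its groups overlapped (log2 fold change -1.07 with standard error 0.627 and adjusted p = 0.19). With replicates 1 and 2 only, the difference for Col14a1 passed (log2 fold change -1.28, adjusted p = 0.026).

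Chains of collagen VI, a beaded microfibril next to basement membranes, were lower in VAMP7KO than in ATG5KO for each of the 3 members (23.6% of all genes tested). Col6a1 (ENSRNOG00000001249) and Col6a2 (ENSRNOG00000001254) encode chains of the same trimer. Col6a1 was at 2807, 2895, 2166 and 2169 CPM in WT, 1180.0, 1193, 1392 and 1349 CPM in VAMP7KO and 2459, 2474, 2325 and 2327 CPM in ATG5KO. Col6a2 was at 2685, 2717, 2223 and 2246 CPM in WT, 1395, 1362, 1721 and 1664 CPM in VAMP7KO and 1987, 2019, 1977 and 1958 CPM in ATG5KO. All VAMP7KO libraries of both genes lay below all libraries of WT and of ATG5KO, with Col6a1 at 50.9% and Col6a2 at 62.2% of the WT mean in VAMP7KO, and at 95.5% and 80.5% in ATG5KO. Between the knockouts Col6a1 (log2 fold change -0.90 with standard error 0.118 and adjusted p = 2.2e-04) and Col6a2 (log2 fold change -0.37 with standard error 0.113 and adjusted p = 0.023) both passed. The call for Col6a2 was lost without VAMP7KO replicate 1 or 2 and without ATG5KO replicate 3 or 4 (adjusted p 0.054 to 0.083). Col6a6 (ENSRNOG00000023007), an alternative chain, was at 0.642, 0.970, 0.0657 and 0.464 CPM in WT, 0.0668, 0.0452, 0 and 0.0411 CPM in VAMP7KO and 0.372, 0.277, 0.647 and 0.553 CPM in ATG5KO, which in VAMP7KO was at or under the floor in each library, against 0.277 CPM or more in ATG5KO (log2 fold change -3.53 with standard error 0.919 and adjusted p = 0.011). Without ATG5KO replicate 3 the log2 fold change was -2.81, and with replicates 1 and 2 only it was -2.35 (adjusted p = 0.051).

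Laminin chains split in 3 directions. Lama4 (ENSRNOG00000000599), the alpha chain of vessel and muscle basement membranes, was high in ATG5KO alone. Lama2 (ENSRNOG00000011134), the alpha chain of muscle laminin, was highest in VAMP7KO. Lamb3 (ENSRNOG00000006025), the beta chain of the laminin that anchors epithelia through hemidesmosomes, was low in both knockouts. Lamb3 was at 388, 389, 137 and 135 CPM in WT, 10.5, 10.9, 16.0 and 15.1 CPM in VAMP7KO and 10.6, 11.8, 8.98 and 9.03 CPM in ATG5KO. All 8 knockout libraries lay between 8.98 and 16.0 CPM, under the lowest WT library, at 5.003% of the WT mean in VAMP7KO and 3.85% in ATG5KO. The knockouts overlapped and their difference did not pass (log2 fold change 0.44 with standard error 0.356 and adjusted p = 0.34). Within the sets it was -0.05 in replicates 1 and 2, and 0.79 in replicates 3 and 4, where it passed (adjusted p = 1.7e-09).

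Lama4 was at 2.77, 2.46, 1.35 and 1.71 CPM in WT, 1.30, 1.27, 1.81 and 1.28 CPM in VAMP7KO and 31.1, 32.8, 36.7 and 36.6 CPM in ATG5KO. The 4 ATG5KO libraries were above the 8 others, at 24.3 times the VAMP7KO mean (log2 fold change -4.60 with standard error 0.230 and adjusted p = 5.6e-07). Lama2 was at 235, 216, 118 and 118 CPM in WT, 373, 309, 265 and 249 CPM in VAMP7KO and 122, 99.6, 119.8 and 129 CPM in ATG5KO, with all VAMP7KO libraries above the WT and the ATG5KO libraries. It was 2.54 times the ATG5KO mean in VAMP7KO (log2 fold change 1.31 with standard error 0.187 and adjusted p = 3.7e-04). Lamc3 (ENSRNOG00000059507), a gamma chain, was not tested, with 0.0424 ± 0.0329 CPM in WT, 0.0807 ± 0.0799 CPM in VAMP7KO and 0.601 ± 0.300 CPM in ATG5KO (SD, n = 4).

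**Figure D3:**
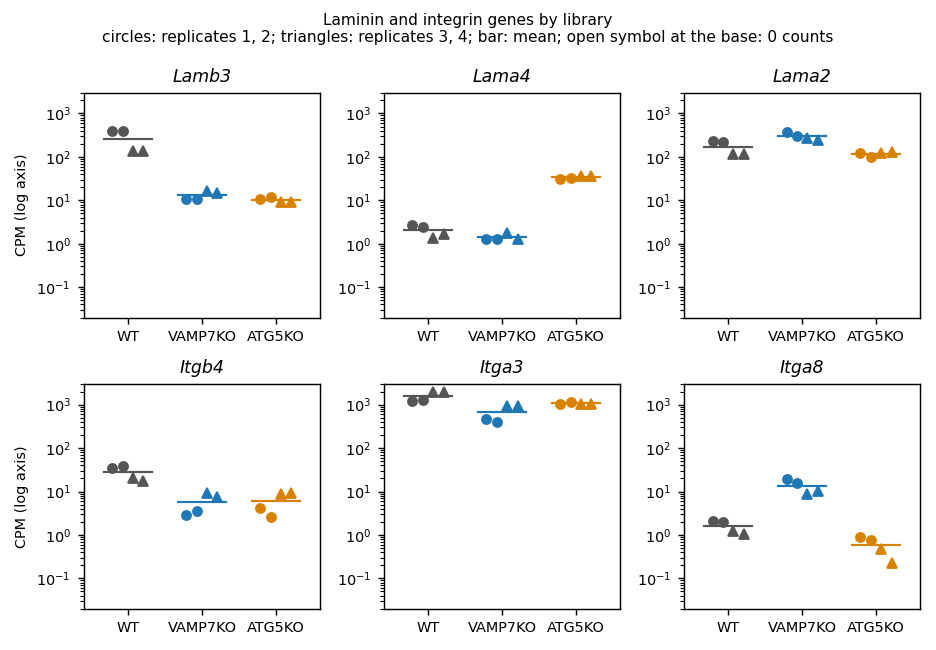
CPM on a log axis of 3 laminin and 3 integrin genes in the 4 libraries of WT, VAMP7KO and ATG5KO. Circles are replicates 1 and 2, triangles replicates 3 and 4, and bars the mean of 4. Lamb3 and Itgb4 were lower in all knockout libraries than in WT, Lama4 was above 31 CPM only in ATG5KO, and Itga8 was above 8 CPM only in VAMP7KO.

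Of the 8 integrin subunits, 2 were higher and 4 lower in VAMP7KO than in ATG5KO (21.3% and 23.6% of all genes tested). Itga8 (ENSRNOG00000016538), the alpha subunit whose receptor binds nephronectin in the kidney, was the highest, and Itgax (ENSRNOG00000036703), the CD11c subunit of myeloid cells, the lowest. Itga8 was at 2.13, 1.94, 1.25 and 1.03 CPM in WT, 19.8, 16.0, 8.88 and 10.2 CPM in VAMP7KO and 0.883, 0.763, 0.467 and 0.230 CPM in ATG5KO. All VAMP7KO libraries lay above WT and all ATG5KO libraries below it, a mean 23.4 times higher in VAMP7KO than in ATG5KO (log2 fold change 4.55 with standard error 0.186 and adjusted p = 2.2e-07). Itgax was at 7.57, 5.33, 1.41 and 1.21 CPM in WT, 0.835, 0.633, 0.758 and 0.699 CPM in VAMP7KO and 10.3, 7.66, 2.98 and 3.32 CPM in ATG5KO, with the VAMP7KO libraries below all others (log2 fold change -2.86 with standard error 0.391 and adjusted p = 2.9e-04). Of the 5 leukocyte markers matched, Csf1r and Lcp1 were lower in VAMP7KO than in ATG5KO, Cd3e was higher and Ptprc and Cd79a did not pass. Ptprc was at 7.70 ± 5.45 CPM (SD, n = 4) in WT, at 0 in each VAMP7KO library and had 3 counts over the ATG5KO libraries. The part of other cell types in the level of Itgax was not tested.

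Itgb4 (ENSRNOG00000005580) encodes the beta subunit that binds the hemidesmosome laminin, and Itga3 (ENSRNOG00000004276) an alpha subunit that binds the same laminin. Itgb4 was at 34.6, 38.8, 20.1 and 17.7 CPM in WT, 2.91, 3.53, 9.21 and 7.61 CPM in VAMP7KO and 4.09, 2.53, 8.58 and 9.12 CPM in ATG5KO. As for Lamb3, all knockout libraries lay below all WT libraries and the knockouts overlapped (log2 fold change -0.06 with standard error 0.476 and adjusted p = 0.93). Itga3 was at 1199.6, 1258, 1963 and 1946 CPM in WT, 458, 409, 949.8 and 928 CPM in VAMP7KO and 1023, 1163, 1043 and 1057 CPM in ATG5KO, so that the VAMP7KO libraries lay below the ATG5KO libraries, and those below WT. The difference between the knockouts passed (log2 fold change -0.76 with standard error 0.205 and adjusted p = 0.013) but was lost with no replicate block (adjusted p = 0.14) and with replicates summed within each set (adjusted p = 0.14), and its value ran from -1.32 to -0.16 over the alternatives.

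Itga2 (ENSRNOG00000058111) encodes a collagen receptor subunit and Itga7 (ENSRNOG00000007905) a laminin receptor subunit of muscle. Itga2 was at 1.42, 1.18, 1.68 and 1.18 CPM in WT, 0.0668, 0.271, 0.506 and 0.206 CPM in VAMP7KO and 0.743, 0.520, 2.51 and 3.13 CPM in ATG5KO, with VAMP7KO below both other genotypes (log2 fold change -2.61 with standard error 0.548 and adjusted p = 0.0034). With replicates summed within each set the call for Itga2 was lost (adjusted p = 0.052). Itga7 was at 38.8, 41.4, 49.2 and 51.2 CPM in WT, 95.4, 90.3, 116 and 112 CPM in VAMP7KO and 324, 298, 230.5 and 228 CPM in ATG5KO. The libraries of Itga7 did not overlap between genotypes, with WT lowest and ATG5KO highest, and the gene was lower in VAMP7KO than in ATG5KO (log2 fold change -1.39 with standard error 0.150 and adjusted p = 6.7e-05). Itga9 (ENSRNOG00000043167), a tenascin receptor subunit, had 81 counts in WT, 20 in VAMP7KO and 3 in ATG5KO. VAMP7KO over ATG5KO was 6.402 times (95% exact counting interval 1.90 to 33.6), and the test passed (log2 fold change 2.55 with standard error 0.830 and adjusted p = 0.030). That call was lost without VAMP7KO replicate 2 or 3 and without ATG5KO replicate 1, 2 or 3 (adjusted p 0.052 to 0.084), and the log2 fold change was 3.70 without ATG5KO replicate 4. Itgb8 (ENSRNOG00000006569), a subunit that activates TGF-beta, was at 2.23 ± 0.347 CPM in WT, 1.10 ± 0.378 CPM in VAMP7KO and 1.34 ± 0.274 CPM in ATG5KO (SD, n = 4), with no call between the knockouts (log2 fold change -0.31 with standard error 0.229 and adjusted p = 0.29). Itgbl1 (ENSRNOG00000004516), a secreted protein with integrin-like repeats, was at 31.9, 29.9, 18.6 and 18.1 CPM in WT, 166, 193, 50.9 and 56.8 CPM in VAMP7KO and 103, 92.3, 55.2 and 53.8 CPM in ATG5KO. Both knockouts lay above WT, and their difference did not pass (log2 fold change 0.46 with standard error 0.188 and adjusted p = 0.070). It passed without VAMP7KO replicate 3 (adjusted p = 0.017) or 4 (adjusted p = 0.048), with the set as block (adjusted p = 0.036) and with the DESeq2 Wald test (adjusted p = 0.042). Within the sets it was 0.90 in replicates 1 and 2 (adjusted p = 1.2e-05) and -0.02 in replicates 3 and 4.

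Among the secreted MMPs, VAMP7KO was lower than ATG5KO for Mmp1, Mmp3 and Mmp10 and higher for Mmp2 and Mmp13. Mmp1 (ENSRNOG00000032353) and Mmp13 (ENSRNOG00000008478) encode collagenases, Mmp3 (ENSRNOG00000032626) and Mmp10 (ENSRNOG00000032832) stromelysins that cut many matrix proteins and activate other MMPs, and Mmp2 (ENSRNOG00000016695) a gelatinase of basement membrane collagen. In RefSeq's order on rat chromosome 8 Mmp13, Mmp12, Mmp1b, Mmp3, Mmp1 and Mmp10 follow each other as coding genes. Mmp1 has the close copy Mmp1b, and Mmp3 and Mmp10 are close relatives, so reads that match both could not be assigned with certainty.

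The promoters of the 4 members of this cluster are shown because the 4 genes lie together and differed between the knockouts in both directions. Each is the RefSeq window on GRCr8, on the + strand, from 250 bases before the start to 50 from it on, and capitals mark TGANTCA, where N is any base. As a pattern it is the same on both strands, and it takes in the AP-1 site TGA(C/G)TCA. The windows are chr8:12782579-12782878 for Mmp13, chr8:12925031-12925330 for Mmp3, chr8:12943203-12943502 for Mmp1 and chr8:12974457-12974756 for Mmp10.
Mmp13: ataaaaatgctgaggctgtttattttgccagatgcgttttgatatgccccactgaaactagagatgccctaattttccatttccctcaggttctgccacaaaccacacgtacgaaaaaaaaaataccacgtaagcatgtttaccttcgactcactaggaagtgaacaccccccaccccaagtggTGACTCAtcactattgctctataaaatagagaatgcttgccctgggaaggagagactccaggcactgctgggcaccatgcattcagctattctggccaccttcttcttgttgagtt
Mmp3: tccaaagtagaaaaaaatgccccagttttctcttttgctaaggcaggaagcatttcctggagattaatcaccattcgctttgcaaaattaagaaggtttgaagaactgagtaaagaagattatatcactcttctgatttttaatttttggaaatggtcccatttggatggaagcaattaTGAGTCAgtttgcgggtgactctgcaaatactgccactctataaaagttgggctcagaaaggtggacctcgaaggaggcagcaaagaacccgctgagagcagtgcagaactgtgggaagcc
Mmp1: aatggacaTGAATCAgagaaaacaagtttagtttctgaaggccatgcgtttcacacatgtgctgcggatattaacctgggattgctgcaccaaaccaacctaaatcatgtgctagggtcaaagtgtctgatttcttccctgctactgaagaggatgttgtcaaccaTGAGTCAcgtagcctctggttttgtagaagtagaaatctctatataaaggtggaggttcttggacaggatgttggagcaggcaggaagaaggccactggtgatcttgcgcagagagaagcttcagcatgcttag
Mmp10: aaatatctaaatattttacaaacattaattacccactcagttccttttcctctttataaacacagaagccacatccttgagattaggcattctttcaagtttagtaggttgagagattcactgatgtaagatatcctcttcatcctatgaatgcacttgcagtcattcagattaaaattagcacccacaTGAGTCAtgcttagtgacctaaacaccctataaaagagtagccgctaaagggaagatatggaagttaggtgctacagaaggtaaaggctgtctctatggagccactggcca
Each of the 4 windows held the motif, which began 66 bases before the start in Mmp13, 71 in Mmp3, 61 in Mmp10, and 84 and 242 in Mmp1. The one at 242 in Mmp1 reads TGAATCA, which is not of the form TGA(C/G)TCA. The pattern TGANTCA was found in 7.33% of the 33469 promoter windows, and in 6 of the 26 members for which a window was matched by symbol, the others being Itgax and Col6a1. The motif was present in the cluster's members that were lower in VAMP7KO and in the one that was higher. Its part in the differences between the knockouts was not tested.

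Mmp3 was at 126, 122, 534 and 493 CPM in WT, 2.14, 2.04, 54.0 and 47.7 CPM in VAMP7KO and 143, 155, 1104 and 1085 CPM in ATG5KO. Within each set Mmp3 was lowest in VAMP7KO and highest in ATG5KO, and replicates 3 and 4 were above replicates 1 and 2 in each genotype. The ATG5KO mean was 23.5 times the VAMP7KO mean (log2 fold change -4.93 with standard error 0.432 and adjusted p = 1.9e-05). Mmp10 was at 84.3, 87.4, 121 and 116 CPM in WT, 0.267, 0.588, 16.4 and 15.8 CPM in VAMP7KO and 10.8, 11.8, 36.5 and 37.0 CPM in ATG5KO. The Mmp10 level in VAMP7KO was under 1 CPM in replicates 1 and 2 and near 16 CPM in 3 and 4, and the knockouts overlapped across the sets. Mmp10 was lower in VAMP7KO (log2 fold change -1.90 with standard error 0.642 and adjusted p = 0.035), with the call lost with no replicate block (adjusted p = 0.29), with replicates summed within each set (adjusted p = 0.21) and without any 1 of VAMP7KO replicates 1 and 2 and ATG5KO replicates 1 to 4 (adjusted p 0.058 to 0.085). The log2 fold change was -2.54 without VAMP7KO replicate 3 and -2.50 without VAMP7KO replicate 4. Mmp1 was at 0.439, 0.554, 0.559 and 0.428 CPM in WT, 0, 0, 0.108 and 0.165 CPM in VAMP7KO and 0.0929, 0.277, 1.19 and 0.875 CPM in ATG5KO. In VAMP7KO 2 libraries held 0 counts of Mmp1, which allows up to the floor, and the difference from ATG5KO passed (log2 fold change -3.01 with standard error 0.765 and adjusted p = 0.0095) although the groups overlapped. Without VAMP7KO replicate 4 the log2 fold change was -3.74, and with replicates summed within each set the call for Mmp1 was lost (adjusted p = 0.11).

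Mmp13 was at 33.8, 33.6, 2.83 and 2.39 CPM in WT, 10.8, 11.6, 0.758 and 1.03 CPM in VAMP7KO and 0.325, 0.347, 0.180 and 0.323 CPM in ATG5KO. Levels in ATG5KO were under all others, and replicates 1 and 2 were above 3 and 4 in WT and VAMP7KO, the reverse of Mmp3. The mean of Mmp13 was 20.6 times higher in VAMP7KO than in ATG5KO (log2 fold change 4.12 with standard error 0.520 and adjusted p = 1.8e-04). The log2 fold change of Mmp13 was 5.05 with replicates 1 and 2 only, and 1.84 with replicates 3 and 4 only. Without ATG5KO replicate 2 it was 3.53. The ATG5KO libraries held 7, 10, 5 and 7 counts of Mmp13. Mmp2 was at 7.23, 6.23, 0.493 and 0.927 CPM in WT, 2.11, 2.80, 0.361 and 0.165 CPM in VAMP7KO and 0.186, 0.104, 0 and 0.184 CPM in ATG5KO, with VAMP7KO above ATG5KO except for replicate 4, where both were near the floor. The test passed (log2 fold change 3.43 with standard error 0.642 and adjusted p = 0.0018) and the call was lost with no replicate block (adjusted p = 0.059). The log2 fold change was 2.80 without ATG5KO replicate 2 and 4.18 without ATG5KO replicate 4, and with replicates 3 and 4 only it was 1.69 (adjusted p = 0.15). Mmp28 (ENSRNOG00000047940), an epithelial MMP, was at 28.2 ± 6.54 CPM in WT, 18.8 ± 2.19 CPM in VAMP7KO and 18.2 ± 3.48 CPM in ATG5KO (SD, n = 4), and the difference between the knockouts did not pass (log2 fold change 0.06 with standard error 0.0897 and adjusted p = 0.61).

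**Figure D4:**
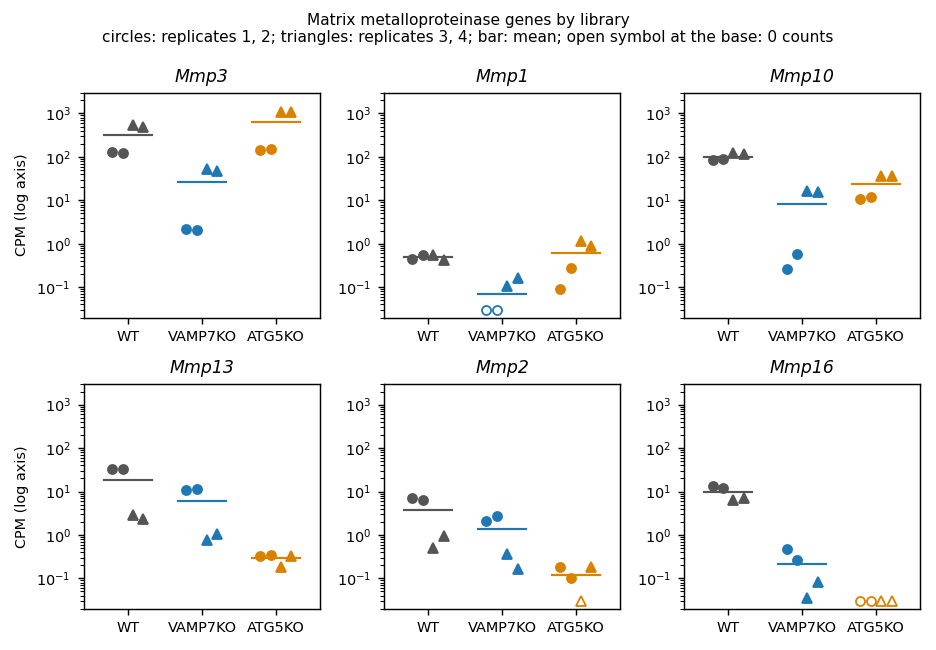
CPM on a log axis of 6 MMP genes in the 4 libraries of WT, VAMP7KO and ATG5KO. Circles are replicates 1 and 2, triangles replicates 3 and 4, bars the mean of 4, and open symbols at the base are libraries with 0 counts. Mmp3 and Mmp10 were lowest in VAMP7KO within each set, while Mmp13, Mmp2 and Mmp16 had their lowest mean in ATG5KO.

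Mmp16 (ENSRNOG00000005708) and Mmp24 (ENSRNOG00000047028) encode membrane-type MMPs, which sit on the cell surface. Mmp16 was at 13.7, 11.9, 6.28 and 7.17 CPM in WT, 0.468, 0.271, 0.0361 and 0.0823 CPM in VAMP7KO and 0, 0, 0 and 0 CPM in ATG5KO. There were 1142 counts over the 4 WT libraries, 23 in VAMP7KO and 0 in ATG5KO, which places WT at least 79.8-fold higher than ATG5KO and VAMP7KO at least 1.75-fold higher than ATG5KO, with 3 counts per library as the floor. The second bound rests on replicates 1 and 2 of VAMP7KO, with 14 and 6 counts, since replicates 3 and 4 held 1 and 2. The test of VAMP7KO against ATG5KO passed for Mmp16 (edgeR, adjusted p = 0.0051), but not with replicates 3 and 4 only (adjusted p = 0.11). Mmp24 was at 1.39, 1.56, 3.19 and 2.82 CPM in WT, 0.167, 0.317, 1.30 and 1.32 CPM in VAMP7KO and 1.63, 2.32, 3.74 and 2.35 CPM in ATG5KO, and the VAMP7KO libraries lay below the ATG5KO libraries (log2 fold change -1.88 with standard error 0.352 and adjusted p = 0.0019). This call was lost with no replicate block (adjusted p = 0.057) and with replicates summed within each set (adjusted p = 0.055).

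Both ADAM members were lower in VAMP7KO than in ATG5KO (23.6% of all genes tested). Adam15 (ENSRNOG00000020590) encodes a membrane protease that binds integrins, and Adam32 (ENSRNOG00000025728) a family member of the testis. Adam15 was at 34.4, 35.9, 11.4 and 11.5 CPM in WT, 18.01, 19.4, 9.06 and 7.69 CPM in VAMP7KO and 85.9, 74.6, 58.4 and 62.8 CPM in ATG5KO. Adam32 was at 2.23, 2.91, 2.10 and 1.998 CPM in WT, 0.902, 0.769, 0.650 and 1.11 CPM in VAMP7KO and 8.13, 6.59, 8.69 and 7.69 CPM in ATG5KO. The ATG5KO libraries of both genes were above those of WT and of VAMP7KO, with 5.20 times the VAMP7KO mean for Adam15 (log2 fold change -2.51 with standard error 0.225 and adjusted p = 2.1e-05) and 9.06 times for Adam32 (log2 fold change -3.18 with standard error 0.220 and adjusted p = 4.3e-06).

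The ADAMTS proteases are secreted enzymes that cut proteoglycans and other matrix proteins. Of 5 members, 2 were higher and 1 was lower in VAMP7KO than in ATG5KO (21.3% and 23.6% of all genes tested). Adamts9 (ENSRNOG00000023257), an enzyme that cuts versican, was at 5.91, 4.43, 4.04 and 3.53 CPM in WT, 11.9, 7.46, 13.6 and 12.8 CPM in VAMP7KO and 1.07, 0.763, 0.108 and 0.230 CPM in ATG5KO. Adamts12 (ENSRNOG00000018865), which cuts cartilage oligomeric matrix protein, was at 4.19, 4.02, 1.77 and 2.996 CPM in WT, 9.86, 8.69, 5.34 and 6.09 CPM in VAMP7KO and 1.63, 2.15, 1.26 and 1.57 CPM in ATG5KO. For both genes VAMP7KO was above WT in each library, and ATG5KO was below VAMP7KO throughout. The mean in VAMP7KO was 21.1 times that in ATG5KO for Adamts9 (log2 fold change 4.46 with standard error 0.443 and adjusted p = 4.1e-05) and 4.54 times for Adamts12 (log2 fold change 2.16 with standard error 0.170 and adjusted p = 9.8e-06). Adamts7 (ENSRNOG00000028036), an enzyme with the same target as Adamts12, was at 57.1, 50.2, 37.5 and 37.0 CPM in WT, 19.6, 15.6, 23.9 and 24.7 CPM in VAMP7KO and 51.7, 52.3, 27.0 and 28.1 CPM in ATG5KO. It was lower in VAMP7KO (log2 fold change -0.85 with standard error 0.241 and adjusted p = 0.016), a call lost without VAMP7KO replicate 1 (adjusted p = 0.060) and with replicates summed within each set (adjusted p = 0.14). Within the sets it was -1.55 in replicates 1 and 2, and -0.18 in replicates 3 and 4 (adjusted p = 0.052). Adamts1 (ENSRNOG00000001607), a versican and aggrecan protease, was at 54.7, 57.1, 50.8 and 51.8 CPM in WT, 268, 284, 105 and 109 CPM in VAMP7KO and 168, 201, 87.0 and 83.4 CPM in ATG5KO. Each knockout library of Adamts1 lay above WT, and VAMP7KO was above ATG5KO in each pair of equal number. Over all replicates the difference did not pass (log2 fold change 0.47 with standard error 0.213 and adjusted p = 0.096). It passed with only the 2 genotypes compared (adjusted p = 0.0033), in replicates 1 and 2 (log2 fold change 0.60, adjusted p = 3.6e-05) and in replicates 3 and 4 (log2 fold change 0.33, adjusted p = 1.6e-06). Adamts15 (ENSRNOG00000009892), a further protease of versican and aggrecan, was at 6.49, 6.54, 0.394 and 0.499 CPM in WT, 0.0668, 0.0452, 0.0361 and 0.165 CPM in VAMP7KO and 0.139, 0.0347, 0 and 0 CPM in ATG5KO. The 8 knockout libraries were at or near the floor, and no call was made between them (adjusted p = 0.52).

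Whether the effect of a knockout differed between the sets was tested as an interaction, a measure not independent of the choice of members. The median size of the log2 fold change against WT was 1.41 over the members in VAMP7KO and 1.54 in ATG5KO. Over all genes it was 0.21 and 0.31. Larger effects leave more room for a difference between the sets. The shares over all genes given beside the counts are thus not a like comparison. The VAMP7KO effect differed for 21 of 38 members (16.5% of all genes), with a higher value in replicates 3 and 4 for 15 (8.97% of all genes) and a lower one for 6 (7.5%). The ATG5KO effect differed for 22 of 38 (28.9% of all genes), higher for 15 (14.4%) and lower for 7 (14.5%). Both effects differed for 15 members (10.4% of all genes), and at least 1 for 28 (35% of all genes). Of the 21 members with a call for VAMP7KO, 15 had an effect of the same sign that was nearer 0 in replicates 3 and 4, 3 had one farther from 0 (Col1a1, Lama2 and Adamts9), and 3 changed sign, Col14a1 and Lama4 among them. For ATG5KO these numbers were 8, 9 and 5. In replicates 3 and 4 the VAMP7KO effect was -0.47 (standard error 0.541) for Col14a1 and 0.03 (standard error 0.236) for Lama4. Each was smaller in size than its standard error, so its sign in that set is not certain. Leaving out 1 library lost the VAMP7KO call of Col14a1, Lama2, Lama4, Adam15, Adamts9 or Adamts15 (adjusted p 0.051 to 0.36), the last only without VAMP7KO replicate 4. It lost the ATG5KO call of Col5a3, Col9a1, Col6a1, Col6a6, Itga2, Mmp1, Adamts7 or Adamts9 (adjusted p 0.052 to 0.24). The spread used in this test is that between libraries of 1 genotype within a set, which lay close together. Its p-values therefore do not measure how an effect would vary over further sets. What the sets stand for is not known here, and its part in these differences was not tested.

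Mmp10 had the largest difference between sets that passed in VAMP7KO. Its VAMP7KO level was 0.498% of WT in replicates 1 and 2 and 13.6% in 3 and 4, a difference of 4.84 (standard error 0.218, adjusted p = 1.9e-10). For Mmp3 the VAMP7KO level was 1.68% of WT in the first set and 9.91% in the second, a difference of 2.56 (standard error 0.148, adjusted p = 2.9e-09). For Lamb3 it was 2.75% and 11.4%, a difference of 2.06 (standard error 0.109, adjusted p = 1.4e-09), and for Itgb4 8.77% and 44.5%, a difference of 2.36 (standard error 0.233, adjusted p = 1.9e-06). These 4 genes stayed below WT in both sets. Col3a1 was at 754% of WT in VAMP7KO in replicates 1 and 2 and 351% in 3 and 4, a difference of -1.10 (standard error 0.0929, adjusted p = 3.0e-07), but at 586% and 983% in ATG5KO, a difference of 0.75 (standard error 0.0924, adjusted p = 1.1e-05) in the other direction. The ATG5KO effect on Mmp13 differed by 3.22 (standard error 0.571, adjusted p = 4.0e-04), where WT itself in replicates 3 and 4 was at 7.73% of its level in replicates 1 and 2. For Col14a1 the differences were -3.11 (standard error 0.861, adjusted p = 0.019) in VAMP7KO and -3.71 (standard error 0.802, adjusted p = 0.0020) in ATG5KO, and WT rested on 0.0693 to 0.678 CPM. The call for Col14a1 in VAMP7KO was lost without WT replicate 2, 3 or 4 or VAMP7KO replicate 4 (adjusted p 0.052 to 0.086).

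**Figure D5:**
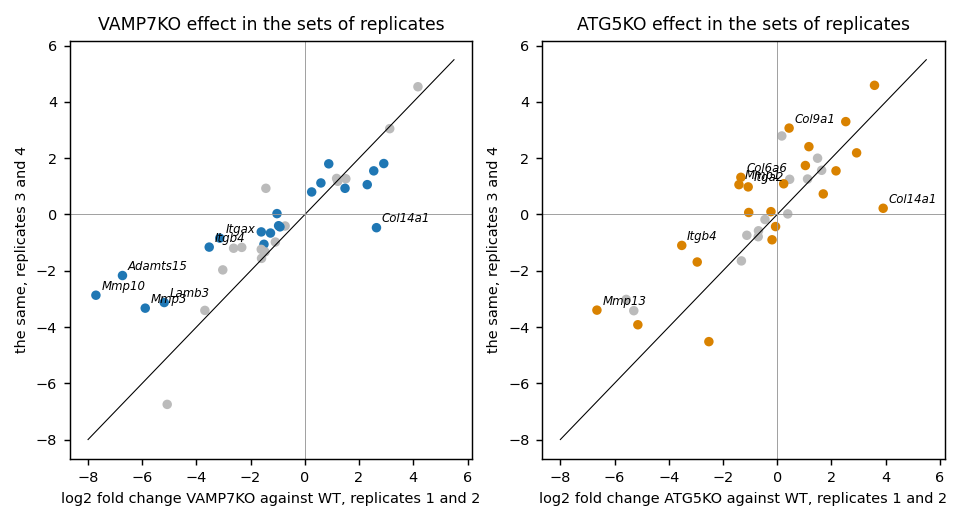
Fitted log2 fold change against WT in replicates 3 and 4 (vertical) against that in replicates 1 and 2 (horizontal), for VAMP7KO (left, 36 members) and ATG5KO (right, 35 members). Coloured points passed the test of a difference between the sets, grey points did not, and the line marks equal effects. Genes with 0 counts in a set of either genotype (Mmp1 for VAMP7KO, Mmp16 and Adamts15 for ATG5KO) are not drawn, and Mmp10, Mmp3 and Lamb3 lay well above the line at negative values in VAMP7KO.

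Other matrix genes were counted from lists of which only genes named by the study as changed could be matched, so they share the selection of the members. Of 27 glycoproteins, 6 were higher and 15 lower in VAMP7KO than in ATG5KO (21.3% and 23.6% of all genes tested), with a median log2 fold change of -1.20 against -0.01 over all genes. Mgp, an inhibitor of calcification, was at 102.2 ± 65.3 CPM (SD, n = 4) in VAMP7KO with 2 counts over all ATG5KO libraries, and Eln, elastin, was at 5.96 ± 3.07 CPM in ATG5KO with 1 count over all VAMP7KO libraries. Of 7 proteoglycans 3 were higher and 3 lower. Dcn, decorin, was the highest (log2 fold change 1.45 with standard error 0.398 and adjusted p = 0.014) and Prelp, a basement membrane proteoglycan, the lowest (log2 fold change -6.82 with standard error 0.232 and adjusted p = 5.8e-08).

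Collagen processing genes, of which 5 of 21 could be matched, were lower in VAMP7KO than in ATG5KO for 4, and the other did not pass. Of all genes tested, 21.3% were higher and 23.6% lower. The matched genes were those named by the study as changed, so the counts are a description from which nothing about a family is read. P3h4, part of a complex that modifies collagen in the ER, had the lowest value (log2 fold change -4.43 with standard error 0.447 and adjusted p = 4.3e-05), and Fkbp10, a collagen chaperone, was at 75.4 ± 16.9 CPM (SD, n = 4) in ATG5KO, 6.83 ± 3.54 CPM in VAMP7KO and 0.666 ± 0.522 CPM in WT. Of 6 tested protease inhibitors and activators 4 were lower and the others did not pass. Timp3, a matrix-bound inhibitor of MMPs and ADAMs, was at 9.19 ± 2.90 CPM in ATG5KO, 0.0806 ± 0.0786 CPM in VAMP7KO and 2 counts in WT (VAMP7KO against ATG5KO log2 fold change -6.85 with standard error 0.364 and adjusted p = 8.1e-07). Of 8 integrin adaptors 4 were lower and 1, Rsu1, was higher (log2 fold change 0.48 with standard error 0.118 and adjusted p = 0.0082), and Efs had 317 counts in ATG5KO and 0 in VAMP7KO, at least 27.7-fold lower.

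Markers of cell types were matched in the same way, so only those named by the study as changed could be counted. This left 10 of 17 epithelial and 7 of 11 mesenchymal markers. Of all genes tested, 21.3% were higher and 23.6% lower in VAMP7KO than in ATG5KO. Of 10 matched epithelial markers 9 were lower in VAMP7KO than in ATG5KO, and their summed level was 897 to 1297 CPM in WT, 640 to 702 CPM in VAMP7KO and 942 to 1210.4 CPM in ATG5KO. The strongest such difference was in Cgn (1 count in VAMP7KO, 141 in ATG5KO), and Cdh16, the kidney cadherin, was at 1.21 ± 0.663 CPM (SD, n = 4) in WT. Of 6 tested mesenchymal markers 2 were higher and 4 lower, with 83.0 to 94.2 CPM in WT, 176 to 199 CPM in VAMP7KO and 235 to 397 CPM in ATG5KO in sum. Acta2, smooth muscle actin, was at 74.0 ± 32.6 CPM in VAMP7KO against 8.74 ± 2.37 CPM in ATG5KO, while Thy1 was at 143 ± 73.5 CPM in ATG5KO against 0.113 ± 0.226 CPM in VAMP7KO.

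Of the 4 skeletal muscle, 5 endothelial and 5 leukocyte markers listed, 4, 3 and 5 were named by the study as changed. Of all genes tested, which were not chosen in this way, 23.6% were lower in VAMP7KO than in ATG5KO. The counts of markers are thus a description. All 4 skeletal muscle markers were lower in VAMP7KO than in ATG5KO. Their sum was 3.65 to 8.52 CPM in WT, 0.329 to 0.668 CPM in VAMP7KO and 18.2 to 30.01 CPM in ATG5KO, and Myod1, the muscle regulator, was at 18.9 ± 4.41 CPM (SD, n = 4) in ATG5KO with 0 counts in VAMP7KO. Ryr1, the calcium channel of the muscle reticulum, made up most of the WT sum, at 5.15 ± 2.35 CPM in WT against 0.368 ± 0.114 CPM in ATG5KO. The 3 endothelial markers summed to 10.2 to 11.5 CPM in WT, 1.72 to 3.62 CPM in VAMP7KO and 1.72 to 2.97 CPM in ATG5KO, with Flt1 higher and Cdh5 and Icam2 lower in VAMP7KO than in ATG5KO. The 5 leukocyte markers summed to 3.55 to 16.1 CPM in WT, 1.10 to 1.52 CPM in VAMP7KO and 6.504 to 11.6 CPM in ATG5KO, with 1 higher and 2 lower. In these bulk samples fewer cells of a type and less RNA per cell cannot be told apart, and the part of these markers in the results on the members was not tested.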

How the data were processed

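Poly-A RNA of NRK cells (WT, VAMP7KO, ATG5KO) was sequenced as 50-base reads, 4 replicates each. The authors trimmed reads with cutadapt 4.2 (Phred 20, shortest read 40), removed rRNA with bowtie 2.2.8, mapped to mRatBN7.2 with STAR 2.7.10b, counted per Ensembl 110 gene with htseq-count 0.13.5 and deposited these counts without normalization. The kit marks strand, but the strand setting of the counting is not given in the sources used here. Groups and replicate numbers come from the labels. The symbols come from the study's lists, which also hold its fold changes and p-values, not used here. Atg5 was not analysed here, since its identifier is in neither list as read.

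The test was edgeR 4.0.16 (limma 3.58.1, R 4.3.3), quasi-likelihood with TMM, after filterByExpr by genotype (13141 genes), on the 12 libraries together and with a block for the replicate number, with Benjamini-Hochberg adjustment over all genes and calls at 0.05. Differences of a knockout effect between replicates 1 and 2 and replicates 3 and 4 were tested as genotype-by-set interactions in a fit that held no replicate number. Overlap of 4 against 4 libraries has a smallest exact two-sided permutation p of 0.0286, and no p of single overlaps is given. Deviations from the genotype mean correlated at 0.562 to 0.681 between libraries of equal number (12 pairs), 0.529 to 0.677 between other libraries of the same set and -0.682 to -0.543 across sets, so the numbers pair the libraries no more closely than the set does. The study calls the replicates independent, with RNA from 1 dish each, and its own DESeq2 analysis adjusted for a batch that is not named.

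Depth was 21090858 to 31525111 counts. Intervals (95%, exact) and the floor of 3 counts are limits of counting alone, because PCR copies were not told apart from molecules. The scripts were tested on simulated data. Of the members, 1 is not reported here by name or drawn, but enters the counts over members. Each other member was named within its role, with every library for the highest and lowest member of a role in VAMP7KO against ATG5KO and for members whose effect differed between sets. In other lists the highest and lowest gene that passed were named, and any further gene was chosen after its values were seen. The members and lists were chosen with earlier results of these data known. Alternatives were no replicate block, the set as block, DESeq2 1.42.0 (size factors, Wald test), no filter, only the 2 genotypes compared, each set alone, each library left out and, added after seeing the data, replicates summed within each set. Promoters are RefSeq windows on GRCr8, matched by symbol. Figures were drawn with matplotlib 3.10.9, and tables made in Python 3.11.15 (scipy 1.17.1, pandas 2.3.3).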

Additional observations from a re-analysis of the deposited data

Results flagged for a closer look

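Of 114 groups of 4 libraries (38 members in 3 genotypes), 3 held a library far from the other 3 by Dixon's test at 95%, where chance gives about 1 in 20. These were ATG5KO replicate 4 for Col22a1, at 0.507 CPM against 0.0347 to 0.0718 CPM in the others, VAMP7KO replicate 3 for Lama4, at 1.81 CPM against 1.27 to 1.30 CPM, and ATG5KO replicate 3 for Mmp13, at 0.18 CPM against 0.323 to 0.347 CPM.

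The log2 effect of VAMP7KO against WT was higher in replicates 3 and 4 than in replicates 1 and 2, by the interaction test, for Mmp10 (4.84), Adamts15 (4.56), Mmp3 (2.56), Itgb4 (2.36), Itgax (2.26), Lamb3 (2.06), Lama4 (1.05), Adamts7 (0.98), Adamts9 (0.88), Col6a1 (0.60), Col6a2 (0.57), Col1a1 (0.54), Lama2 (0.52), Adam15 (0.47) and Itga3 (0.45). It was lower in replicates 3 and 4 for Col14a1 (-3.11), Adamts1 (-1.24), Col3a1 (-1.10), Itgbl1 (-0.99) and Col12a1 (-0.56). Without VAMP7KO replicate 4 the value for Adamts15 was 3.25 (adjusted p = 0.36), and without VAMP7KO replicate 3 it was 5.31. Without VAMP7KO replicate 2 that for Mmp10 was 5.45, and without WT replicate 1 that for Col14a1 was -3.88. The values are differences between the fitted log2 effects of the sets, and no label says what the sets are.

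The log2 effect of ATG5KO against WT was higher in replicates 3 and 4 than in replicates 1 and 2, by the interaction test, for Mmp13 (3.22), Col9a1 (2.59), Col6a6 (2.53), Itgb4 (2.41), Mmp1 (2.38), Itga2 (2.03), Mmp10 (1.24), Adam15 (1.22), Lamb3 (1.2), Lama2 (1.09), Lama4 (0.98), Mmp3 (0.83), Col3a1 (0.75), Col1a1 (0.68) and Col6a1 (0.31). It was lower in replicates 3 and 4 for Col14a1 (-3.71), Adamts9 (-1.99), Adamts1 (-0.99), Itga7 (-0.76), Itga3 (-0.73), Col5a3 (-0.65) and Adamts7 (-0.39). Without WT replicate 3 the value was 3.49 for Col9a1 (adjusted p = 0.056) and 1.74 for Col6a6 (adjusted p = 0.14), and without WT replicate 4 it was 4.47 for Col6a6. For Col14a1 it was -4.46 without WT replicate 1 and -3.02 without ATG5KO replicate 1, and for Mmp1 it was 3.43 without ATG5KO replicate 2.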

How the results depend on the processing

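With the replicate number as a block 28 members were called between VAMP7KO and ATG5KO, and with no replicate block 22. With replicates summed within each set 16 of 39 were called (7 higher, 9 lower), with only 2 samples per genotype. The other alternatives gave 24 to 31, and leaving out 1 library 24 to 29. The shares of all genes called in the alternatives are not given here, so these changes are not read as particular to the members. The counts whose effect differed between the sets were 17 to 22 for VAMP7KO and 16 to 23 for ATG5KO, and positive values against WT 13 to 15 and 18 to 22. DESeq2's size factors moved the median of all genes by at most 0.01.

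Some small differences changed sign. With replicates 1 and 2 only, VAMP7KO against ATG5KO was 0.38 for Col3a1, -0.05 for Lamb3, -0.04 for Mmp28 and -0.44 for Adamts15, and with replicates 3 and 4 only -0.34 for Col12a1 and -0.02 for Itgbl1 (log2). Leaving out 1 library, it ran from -0.10 to 0.13 for Col12a1, -0.36 to 0.26 for Itgb4 and 0.00 to 2.09 for Adamts15. The difference of the VAMP7KO effect between the sets ran, likewise, from -0.48 to 0.02 for Col5a3, -2.11 to 2.15 for Col6a6, -0.21 to 0.06 for Itga8, -0.66 to 0.70 for Itgb8, -0.59 to 0.61 for Mmp2, -0.18 to 0.26 for Mmp13, -0.05 to 0.73 for Adam32 and -0.24 to 0.51 for Adamts12. That of ATG5KO ran from -0.97 to 0.04 for Itga8, -1.49 to 4.18 for Itga9, -0.26 to 0.06 for Itgb8, -0.16 to 0.00 for Itgbl1, -1.72 to 3.65 for Mmp2 and -1.08 to 0.76 for Adamts15, and with the DESeq2 Wald test it was 0.47 for Adamts15. The cause was not tested. None of these members had passed the test concerned. Groups under 1 CPM, such as Itga9 and Adamts15 in both knockouts, are limited by depth.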
